A study of Morus alba with 35 samples.

Results

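White mulberry (Morus alba) cell suspensions elicited for 6 h were compared with control suspensions of the same time, as 3 elicited libraries against 2 control libraries out of the 34 short-read libraries of the series. The libraries were taken by their labels, and all expressed genes were considered: of 31401 annotated genes, 24779 had a count in at least 1 of the 5 libraries, and 20107 had enough reads to be tested. The elicited flasks held 50 mM methylated cyclodextrin (MBCD) and 100 µM methyl jasmonate (MeJA), added together, so that the separate effects of the 2 agents cannot be told apart at this time. The control flasks held neither agent, and both groups carried 2.1 µL of ethanol per mL of suspension. Each flask of either group was started with 8 g of cells, filtered and washed from a stem-derived suspension of 14 days, in 32 g of fresh medium, so the control cells had also been through the wash and the transfer. Flasks stood at 25 °C in darkness on a shaker. The labels describe replicates as flasks without saying whether the flasks were filled from different mother cultures. The p-values therefore measure the spread between flasks, which may be technical.

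Jasmonates are defence hormones of plants. The active conjugate is perceived by the F-box receptor COI1, which leads to the breakdown of JAZ repressors and frees transcription factors such as MYC2 to act on their targets. Cyclodextrins are ring-shaped sugars that are used with methyl jasmonate to raise stilbene output in cultured plant cells, and in mulberry the stilbene of interest is oxyresveratrol, which is built from intermediates of the phenylpropanoid pathway by stilbene synthases. The identifiers of the deposited table come without gene names or products, so which of the genes below belong to these pathways is not stated here, and the cell type was not checked against markers. Genes are therefore described by their levels, their course over time, their exon structure and their position.

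The 5 libraries held 17632370 to 18661780 counts. Levels are given as CPM, the counts of a gene per 1000000 counts of its library after TMM scaling of the library size, and 3 counts in 1 library corresponded to between 0.157 and 0.190 CPM. Elicited replicate 1 stood apart from the other elicited libraries. The chi-square per degree of freedom was 50.4 between elicited replicates 1 and 2 and 47.3 between replicates 1 and 3, against 10.9 between replicates 2 and 3, and it was 36.0 between the control replicates. Among the tested genes, 8.07% and 8.25% were at least 2-fold apart between elicited replicate 1 and replicates 2 and 3, 5.43% between elicited replicates 2 and 3, and 6.06% between the controls. All pairs differed by more than sampling noise, and each library was counted as 1 replicate. In such bulk libraries, fewer cells of a type and less RNA per cell cannot be told apart.

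After 6 h of elicitation, 732 genes were higher and 522 lower in elicited cells than in controls, which are 3.64% and 2.6% of the tested genes (edgeR quasi-likelihood test, Benjamini-Hochberg adjusted p below 0.05). The increases were the larger changes. Increases of at least 2-fold numbered 434 (2.16% of the tested genes) and decreases of that size 98 (0.487%). With genes that had no read in 1 group set to a floor of 3 counts over that group, 153 genes were at least 4-fold higher, 51 at least 8-fold and 23 at least 16-fold higher, while 14 were lower by 4-fold or more and 1 of these by 8-fold or more. The median log2 difference was 1.18 in the higher genes and -0.61 in the lower genes, beside -0.01 over all tested genes. All 3 elicited libraries lay above both controls for 730 of the 732 higher genes and below both for 520 of the 522 lower genes. Over all tested genes, such a separation was found upward for 17.2% and downward for 17.7%, so it was common without a call. The balance of directions depended on the fit. Increases made up 58.4% of all calls, against 47.5% with libraries scaled by their size alone (619 higher and 685 lower genes), 78.7% with only the 6 h libraries (388 and 105) and 66.3% without elicited replicate 1 (402 and 204).

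**Figure D1:**
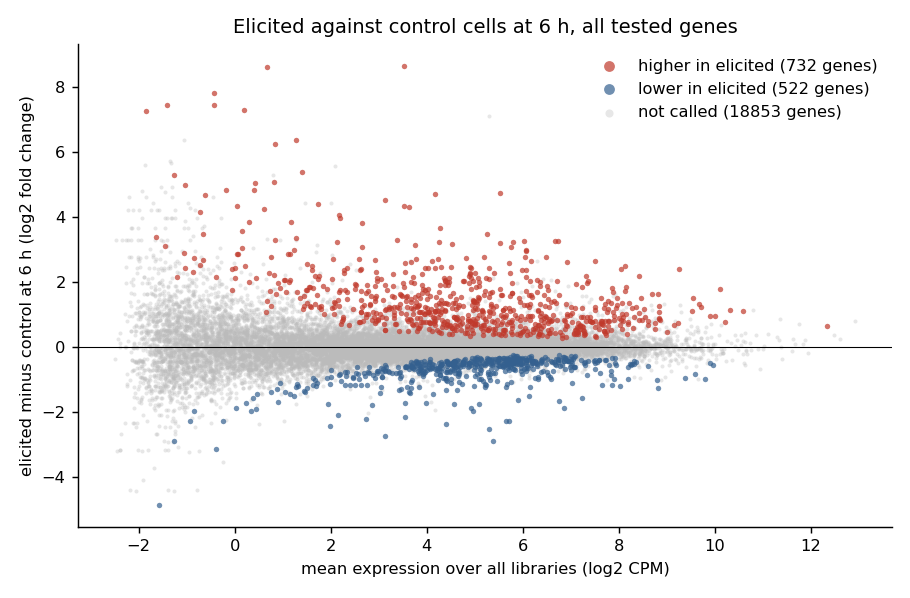
Log2 fold change of elicited over control cells at 6 h (vertical axis) against mean expression over all libraries in log2 CPM (horizontal axis), 1 point per tested gene. The 732 higher genes reach further from 0 than the 522 lower genes. Fitted folds of genes with no or almost no read in 1 group depend on the small prior count of the fit.

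The calls rested on few libraries, and their number moved with each. The 732 and 522 calls became 402 and 204 without elicited replicate 1, 815 and 545 without elicited replicate 2, 615 and 348 without elicited replicate 3, 349 and 286 without control replicate 1, and 224 and 152 without control replicate 2 (edgeR quasi-likelihood). Increases of at least 2-fold numbered 247 without elicited replicate 1, 211 without control replicate 1 and 177 without control replicate 2. Of the 732 higher genes, 128 (17.5%) were called higher in all 5 of these fits, and of the 522 lower genes 51 (9.77%) were called lower in all 5. The 128 genes had a median log2 fold change of 1.65 and a median level of 51.4 CPM in elicited cells, against 12.3 CPM in controls. The 51 genes had a median of -1.18 and stood at 21.6 CPM in elicited cells, against 59.5 CPM in controls. All 4 genes named below are among them.

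Among the elicited libraries, replicate 1 was farthest from the controls in the called genes, which were chosen by these same libraries. It was the highest elicited library for 56.8% of the higher genes, against 11.5% for replicate 2 and 31.7% for replicate 3, whereas over all tested genes these shares were 38.9%, 30.3% and 30.8%. It was also the lowest elicited library for 60.7% of the lower genes, whereas over all tested genes it was the lowest for 37.3%. Relative to the mean of the controls, the median log2 level of the higher genes was 1.29 in elicited replicate 1, 0.92 in replicate 2 and 1.05 in replicate 3, and that of the lower genes was -0.71, -0.50 and -0.61 in the same libraries.

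The higher genes took up 11.2%, 8.22% and 8.86% of all counts in the elicited libraries, against 5.02% and 4.69% in the controls. The lower genes took up 2.06%, 2.59% and 2.36% in the elicited libraries, against 4.00% and 3.90% in the controls. These shares describe the libraries by which the genes were chosen. The gain was spread over many genes: the 10 genes with the greatest rise in CPM accounted for 21.9% of the summed rise and the 50 greatest for 49.0%. Of the genes lower in elicited cells, the 10 with the greatest fall accounted for 25.0% of the summed fall. Few of the higher genes were without reads in the controls: 5 of the 732 higher genes had no read in either control, with mean levels of 0.266 to 1.57 CPM in elicited cells, which makes them at least 3.14-fold to at least 18.6-fold higher against 3 counts over the control group. Another 12 had 1 to 3 reads over both controls. Of the lower genes, 1 had no read in any elicited library.

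The share of increases rose with expression, while that of decreases was greatest at 10 to 100 CPM, at 3.92%. Of the genes under 1 CPM at 6 h, 0.624% were called higher and 0.437% lower. At 100 CPM or more these shares were 8.25% (Wilson 95% interval 7.22 to 9.42%) and 3.38% (2.72 to 4.18%). Increases of at least 2-fold made up 0.624%, 2.09%, 2.44% and 3.38% of the genes at under 1, 1 to 10, 10 to 100 and 100 or more CPM. For decreases of at least 2-fold these shares lay between 0.437% and 0.547%. Under 1 CPM all 20 increases were of at least 2-fold, against 81 of 198 at 100 CPM or more. The power of the test rises with the counts, and its part in these shares was not tested.

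Mal_HE_154X_1_chr004g022320 had the greatest increase among the 602 higher genes that had at least 1 CPM in controls, no overlap between groups and no exon base in common with another gene. Its 1 annotated exon covers 471 bases of the plus strand of chromosome 4, from 21664651 to 21665121 in the coordinates of the deposited table, whose genome build is not given in the sources used here. At 6 h it stood at 39.9, 44.3 and 54.4 CPM in the elicited libraries, against 1.15 and 2.32 CPM in the controls. The lowest elicited library was far above the higher control. The log2 fold change was 4.75 (SE 0.51, adjusted p = 1.43e-06, edgeR quasi-likelihood), a 27.0-fold difference. Over time the elicited level went on rising, to 55.5 ± 20.2 CPM at 12 h, 82.5 ± 29.4 CPM at 24 h and 160 ± 56.7 CPM at 48 h, before 48.0 ± 13.5 CPM at 72 h (SD, n = 4 each). The controls declined meanwhile, to 0.746 ± 0.262 CPM at 12 h (SD, n = 2) and 1 read over both libraries at 24 h. Its difference at 6 h was smaller than the mean difference of the other 5 times (adjusted p = 0.000929, edgeR interaction contrast), a contrast whose size rests on fitted values for control groups with no or 1 read.

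Mal_HE_154X_1_chr008g015450, with 7 exons on chromosome 8 (15478402 to 15482068, minus strand), ranked after it. The 3 elicited libraries were nearly equal, at 23.8, 23.6 and 23.8 CPM, against 1.36 and 0.671 CPM in the controls. The log2 fold change was 4.51 (SE 0.31, adjusted p = 1.44e-10, edgeR quasi-likelihood). Elicited cells had already reached 25.5 ± 5.6 CPM at 0.5 h (SD, n = 3), against 0.491 ± 0.173 CPM in controls (SD, n = 2). The level then declined in elicited cells, to 13.1 ± 0.803 CPM at 12 h and 7.18 ± 0.703 CPM at 24 h (SD, n = 4 each), while control means stayed between 0.418 and 2.21 CPM over the 6 times. The log2 difference changed by -1.95 between 6 and 12 h (adjusted p = 0.0039, edgeR interaction contrast). Scaled by exon length, the mean level in elicited cells at 6 h was 18 TPM (transcripts per 1000000), against 127 TPM for the chromosome 4 gene.

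The decreases at 6 h were led by Mal_HE_154X_1_chr011g014330 among 449 lower genes under the same rule. It has 2 exons on chromosome 11 (12234346 to 12235734, plus strand). Elicited libraries stood at 11.1, 12.2 and 8.47 CPM, against 96.1 and 63.2 CPM in the controls. The log2 fold change was -2.91 (SE 0.33, adjusted p = 2.21e-06, edgeR quasi-likelihood). Elicited cells kept a level near this from 0.5 to 48 h, with means between 10.6 and 13.4 CPM. Over 0.5, 6, 12 and 24 h the controls had 18.7 ± 3.26, 79.7 ± 23.3, 33.8 ± 2.56 and 106 ± 1.27 CPM (SD, n = 2 each), so the difference at 6 h went with a high control level. It was lower than the difference at 0.5 h, by a log2 contrast of -2.21 (adjusted p = 0.0263, edgeR interaction contrast).

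Mal_HE_154X_1_chr007g006310, with 7 exons on chromosome 7 (4583857 to 4589226, minus strand), was lower by a like amount. Elicited libraries stood at 4.61, 8.15 and 5.02 CPM, against 31.5 and 48.4 CPM in the controls, and the log2 fold change was -2.75 (SE 0.28, adjusted p = 6.05e-07, edgeR quasi-likelihood). The 6 h controls were the highest controls of the course: their mean was 40.0 ± 12.0 CPM, and the control means at the other 5 times lay between 5.41 and 10.9 CPM. Elicited means lay between 1.42 and 5.93 CPM from 0.5 to 48 h. At 72 h the order was the reverse, with 18.3 ± 4.81 CPM in elicited cells (SD, n = 4), against 10.9 ± 2.77 CPM in controls (SD, n = 2), a log2 fold change of 0.75 (adjusted p = 0.0274, edgeR quasi-likelihood). The difference at 6 h was lower than the mean of the other 5 times, by a log2 contrast of -1.74 (adjusted p = 0.000188, edgeR interaction contrast).

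**Figure D2:**
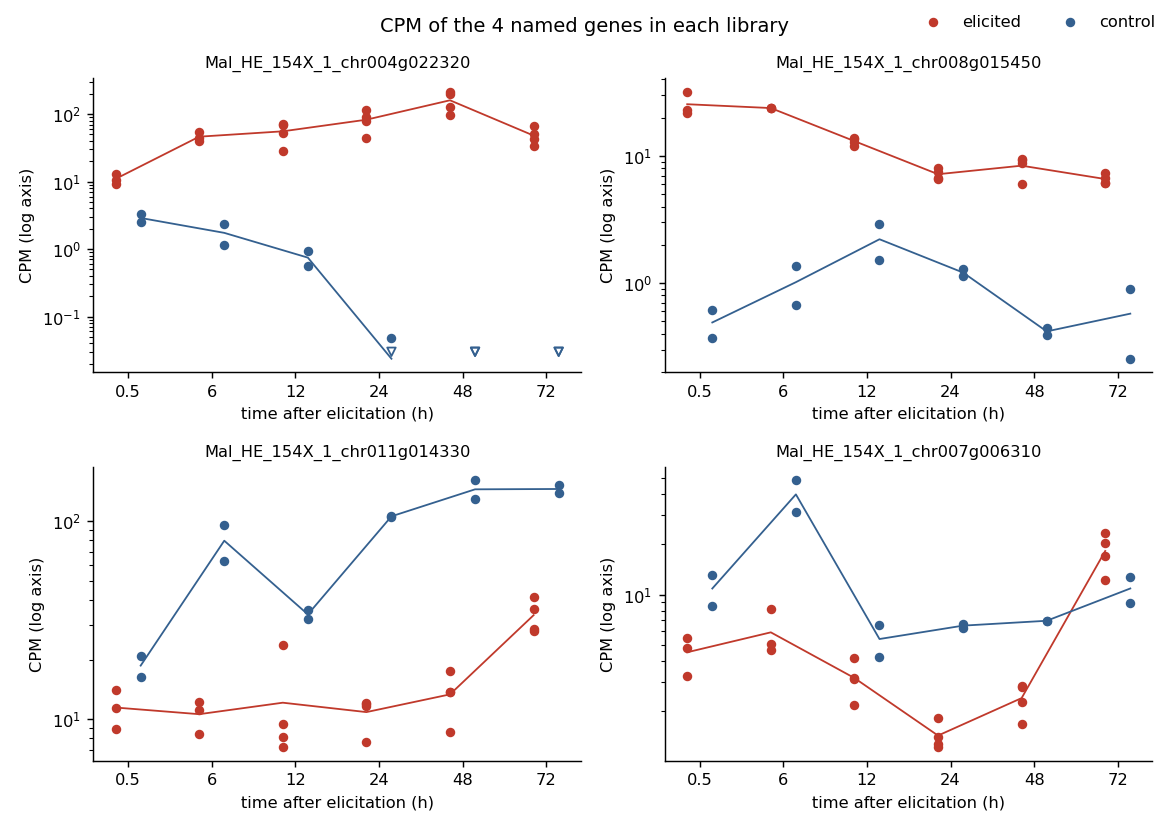
CPM on a log axis (vertical) of the 4 named genes in each of the 34 libraries against time after elicitation in h (horizontal, not to scale). Points are libraries, lines join group means, and open triangles mark libraries with no read. At 6 h elicited libraries lie above controls for the upper 2 genes, at 39.9 to 54.4 and 23.6 to 23.8 CPM, and below controls for the lower 2.

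The genes called at 6 h were followed in the libraries of the other times, which entered the 6 h test through the filter on low counts, the scaling and the shared estimate of the spread, but not through the 6 h means. Of the 732 higher genes, 91 (12.4%) were also called higher at 0.5 h, where 2.34% of all tested genes were. Over 12, 24, 48 and 72 h, in that order, 58.3%, 69.5%, 69.0% and 59.7% of them were called higher, beside 12.8%, 21.7%, 26.5% and 22.3% of all tested genes. Taken the other way, these genes make up 19.4% of the higher calls at 0.5 h, and 16.6%, 11.7%, 9.49% and 9.76% of those at the 4 later times. Their median log2 difference over the 6 times in order was 0.36, 1.18, 0.81, 1.10, 1.25 and 0.99, and with groups without reads set to the floor of 3 counts it was 0.36, 1.18, 0.81, 1.09, 1.23 and 0.93. Of the 522 lower genes, 4.79% were called lower at 0.5 h, where 1.64% of all tested genes were. Over 12, 24, 48 and 72 h these shares were 31.6%, 48.7%, 55.4% and 36.2%, beside 10.2%, 17.9%, 25.1% and 21.8% of all tested genes.

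The overlap with the neighbouring times also depended on single libraries. Genes higher at both 6 and 12 h numbered 427, against 170 and 175 without 6 h control replicate 1 or 2 and 261 without either 12 h control. Genes lower at both numbered 165, against 79 without 6 h elicited replicate 1, 59 and 85 without 6 h control replicate 1 or 2, and 72 and 70 without 12 h control replicate 1 or 2. Genes called in the same direction at 0.5 and 6 h numbered 116. They were 298 without 0.5 h elicited replicate 1, 54 without 0.5 h elicited replicate 3, 20 and 40 without 0.5 h control replicate 1 or 2, and 67 and 64 without 6 h control replicate 1 or 2.

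**Figure D3:**
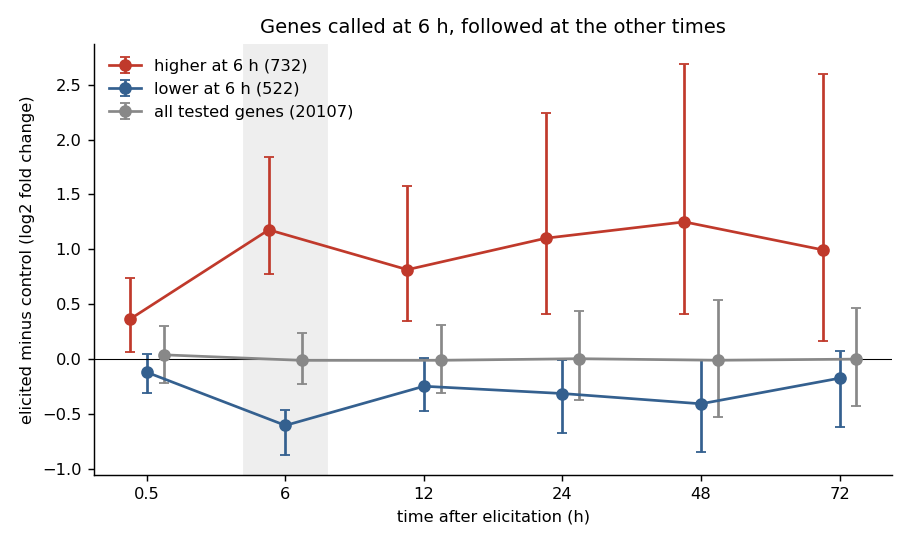
Median log2 fold change of elicited over control cells (vertical axis, bars from the lower to the upper quartile over genes) at each time in h (horizontal axis, not to scale) for the 732 genes higher at 6 h, the 522 genes lower at 6 h and all tested genes. The shaded time is the one by which the genes were chosen. The higher genes stay above the median gene at all 6 times, with medians of 0.36 to 1.25, and the spread over genes widens at the late times.

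The long persistence of the difference in the higher genes went with a declining control level. Relative to each gene's mean over the 12 groups, the median log2 level of the 732 genes in elicited cells was 0.70 ± 0.15 at 0.5 h, 1.07 ± 0.19 at 6 h (SD, n = 3 each), 0.42 ± 0.11 at 12 h and -0.04 ± 0.03 at 72 h (SD, n = 4 each). In controls of the same 4 times it was 0.34 ± 0.13, -0.07 ± 0.01, -0.33 ± 0.05 and -1.13 ± 0.02 (SD, n = 2 each). The values at 6 h are those by which the genes were chosen. The lower genes in elicited cells had a median level of -0.34 ± 0.07 at 0.5 h and -0.44 ± 0.10 at 6 h (SD, n = 3 each), and of -0.07 ± 0.07 at 12 h (SD, n = 4). In controls they had -0.23 ± 0.05 at 0.5 h, 0.23 ± 0.03 at 6 h and 0.15 ± 0.02 at 12 h (SD, n = 2 each).

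The 6 h difference was tested directly against those of other times over all genes. Differences are taken with their sign, so that a stronger decrease counts as a smaller difference. The 6 h difference was called greater than that at 0.5 h for 96 genes and smaller for 74 (0.477% and 0.368% of those tested). Of these 74 genes, 46 were among those lower at 6 h. The 12 h difference was greater than that at 6 h for 672 genes and smaller for 362 (3.34% and 1.8%). Of the 672 genes, 111 were among those lower at 6 h. Against the mean of the other 5 times, the 6 h difference was greater for 1567 genes and smaller for 2265 (7.79% and 11.3%, all by edgeR interaction contrasts). The first count, 170 in all, was 352, 300 and 50 without 0.5 h elicited replicates 1, 2 and 3, 32 and 40 without 0.5 h control replicates 1 and 2, 89 without 6 h elicited replicate 3 and 65 without 6 h control replicate 2. The second, 1034 in all, was 205 without control 6 h replicate 2, and 479 and 259 without control 12 h replicates 1 and 2. The third, 3832 in all, was 1868 without control 6 h replicate 2. For the genes called at 6 h these contrasts use the libraries that chose them, and their counts are a description.

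Among the 732 higher genes, 153 had a 6 h difference above the mean of the other times. Their median log2 difference over 0.5, 6, 12, 24, 48 and 72 h, in that order, was 0.18, 1.16, 0.24, 0.00, -0.16 and -0.45. A further 102 had a 6 h difference below that mean, with medians of 0.57, 1.24, 1.77, 2.91, 4.03 and 4.01 over the same times, and these values do not move when groups without reads are set to the floor. The level of these 102 genes in elicited cells varied little after 6 h, with group medians between 1.17 and 1.56 log2 units above each gene's own mean, while the control median was -0.06 at 6 h and -2.80 at 72 h. At no other time were 114 of the higher genes called higher, and for 95 of these the 6 h difference was called above the mean of the others. These 114 genes were picked by their calls at the same times, so the count of 95 largely describes that choice. The 91 genes called higher at both 0.5 and 6 h had medians of 1.33 and 1.52 at these times. For 73 genes higher at 6 h the call at 72 h was lower, with medians of 1.00 at 6 h and -1.14 at 72 h. Of them 68 had a 6 h difference above the mean of the others, which also largely describes how they were picked.

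Of the 522 lower genes, 162 (31.0%) were called lower at no other time, beside 15.6% of the higher genes. For 195 the 6 h difference was below the mean of the other 5 times. These 195 genes had a median log2 fold change of -0.05 at 0.5 h, -0.62 at 6 h and 0.03 at 12 h. Their median level in controls was 0.46 log2 units above each gene's own mean at 6 h, and between -0.10 and 0.00 at the other 5 times. In elicited cells it was -0.17 at 6 h and 0.04 at 12 h. These 195 genes were chosen by their 6 h difference against the other times, so this profile in part describes that choice. The 6 h controls were 2 libraries, and without control replicate 2 only 128 of the 522 lower genes were called (edgeR quasi-likelihood).

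Among all calls, single-exon genes had the highest share of increases and the lowest share of decreases of the 5 exon classes. Of the 3174 tested genes with 1 annotated exon, 5.14% were called higher (Wilson 95% interval 4.42 to 5.96%) and 1.73% lower (1.33 to 2.25%). Of the 4107 genes with 10 or more exons, 2.92% were called higher (2.45 to 3.48%) and 3.02% lower (2.54 to 3.59%). Among increases of at least 2-fold the shares fell with each class, from 3.94% of single-exon genes through 3.04% with 2 exons, 2.47% with 3 to 5 and 1.20% with 6 to 9 to 0.925% with 10 or more. Decreases of at least 2-fold were equally frequent with 1 exon (0.788%) and 2 exons (0.790%). Their share then fell, to 0.170% of the genes with 10 or more exons. Of these 98 decreases 25.5% have a single exon, beside 28.8% of the 434 increases of that size. Among the calls under 2-fold, 12.8% of the higher and 7.08% of the lower genes have a single exon. Short genes took part: of the single-exon genes under 500 bases, 7.32% were called higher (5.05 to 10.5%), and of those of 1000 bases or more, 4.05% (3.27 to 5.01%). Intervals cover counting error only, since genes are not independent replicates. Among the higher genes, single-exon genes made up 24.6% at 2 to 4-fold, 42.2% at 4 to 8-fold (43 of 102 genes) and 25% at 8-fold or more.

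The share of single-exon genes among the higher genes, 22.3% beside 15.7% of the genes not called, depended on the libraries in the fit. Without control replicate 1 it was 12.9%, beside 16.2% of the genes not called in that fit, without control replicate 2 it was 21.9%, and with the 6 h libraries alone it was 29.4%, beside 14.3%. The single-exon genes as a whole took 10.6%, 9.34% and 10.3% of the counts in the elicited libraries, against 8.72% and 9.77% in controls 1 and 2. Control replicate 1 was thus the lowest of the 5 libraries in this share. Its part in the result beyond the value without it was not tested.

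**Figure D4:**
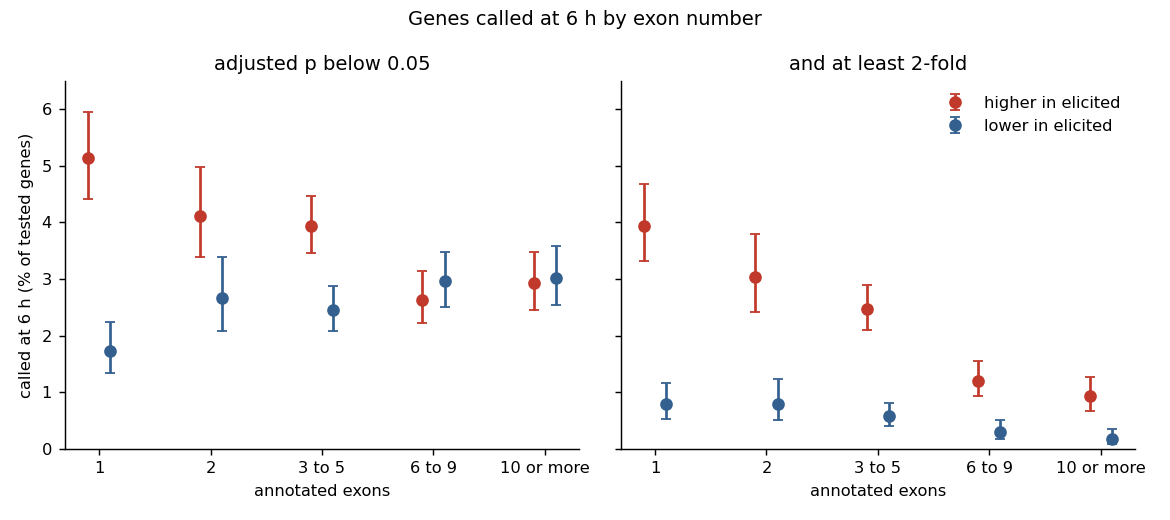
Share of tested genes called higher or lower in elicited cells at 6 h (vertical axis, in %) by number of annotated exons (horizontal axis), for all calls on the left and for calls of at least 2-fold on the right. Bars are Wilson 95% intervals. On the left, single-exon genes have the highest share of increases, 5.14%, and the lowest share of decreases, 1.73%. On the right, their share of decreases, 0.788%, is above that of genes with 10 or more exons, 0.170%.

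Some of the higher genes were neighbours. Runs of 3 or more consecutive tested genes, all higher, numbered 12 and held 41 genes, 5.60% of the 732, while the lower genes formed 1 run of 3 genes. In 4 of the 12 runs, genes share exon bases so that fewer than 3 separate loci are left, and reads from such genes cannot be told apart. The number of runs was between 0 and 15 when single 6 h libraries were left out, with 3 without elicited replicate 1, 1 without control replicate 1 and 0 without control replicate 2. Whether genes of a run are near-identical copies that share reads was not tested.

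The run at chromosome 1, 1092477 to 1180614, held 4 genes over 88.1 kb. Its summed level at 6 h was 31.5, 41.2 and 57.6 CPM in the elicited libraries, against 10.5 and 8.42 CPM in the controls. Much of the sum came from 1 gene with 2 exons, at 35.3 ± 10.5 CPM in elicited cells (SD, n = 3), against 9.40 ± 1.48 CPM in controls (SD, n = 2). The other 3 genes have 3 exons each. Of these, 2 had no read in either control and were at least 18.6-fold and at least 14.1-fold higher against 3 counts over the control group, and the third stood at 5.29 ± 1.58 CPM in elicited cells (SD, n = 3), against 2 reads over both controls. None of the 4 was called higher at 0.5 h, and all 4 were called higher at each of 12, 24, 48 and 72 h.

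A second run on chromosome 1, 20673428 to 20701207, consisted of 3 single-exon genes of 273, 513 and 273 bases. Its summed level was 909, 364 and 510 CPM in the elicited libraries, against 65.0 and 102 CPM in the controls. The groups were apart, but elicited replicate 1 was the highest library of the 5 by far. At 0.5 h the order was the reverse, with 215 ± 17.6 CPM in elicited cells (SD, n = 3), against 306 ± 52.0 CPM in controls (SD, n = 2), and none of the 3 genes was called higher. All 3 were called higher at 12 h, with a sum of 417 ± 303 CPM in elicited cells (SD, n = 4), against 20.3 ± 2.95 CPM in controls (SD, n = 2).

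A run at chromosome 10, 15329945 to 15361233, is annotated as 4 single-exon genes that form 2 loci. The overlapping partners lie on opposite strands and had nearly equal mean levels in elicited cells, at 116 and 117 CPM and at 123 and 122 CPM. The sums below are therefore likely to hold most reads more than once. The summed level of the run was 721, 294 and 415 CPM in the elicited libraries, against 87.5 and 129 CPM in the controls. All 4 genes were also called higher at 0.5 h, at a sum of 482 ± 219 CPM in elicited cells (SD, n = 3), against 89.2 ± 32.5 CPM in controls (SD, n = 2). Both treatments were far lower afterwards, with 76.8 ± 45.4 CPM at 12 h and 7.20 ± 3.21 CPM at 72 h in elicited cells (SD, n = 4 each), against 10.9 ± 1.90 and 4.04 ± 0.164 CPM in controls (SD, n = 2 each).

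A run at chromosome 5, 6660476 to 6669899, reached higher sums later on. It held 3 genes within 9.42 kb at 136, 161 and 157 CPM in the elicited libraries, against 36.4 and 30.7 CPM in the controls. All 3 were called higher at 0.5 h as well. At 48 h the sum was 1480 ± 241 CPM in elicited cells (SD, n = 4), against 88.9 ± 12.8 CPM in controls (SD, n = 2), and 2 of the 3 genes were called higher, while the third had a log2 difference of -1.40. A run of 4 genes at chromosome 6, 20804696 to 20837310, stood at 74.3, 65.2 and 84.3 CPM in the elicited libraries, against 33.9 and 24.2 CPM in the controls, and reached 419 ± 67.5 CPM in elicited cells at 48 h (SD, n = 4), against 33.6 ± 8.55 CPM in controls (SD, n = 2).

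**Figure D5:**
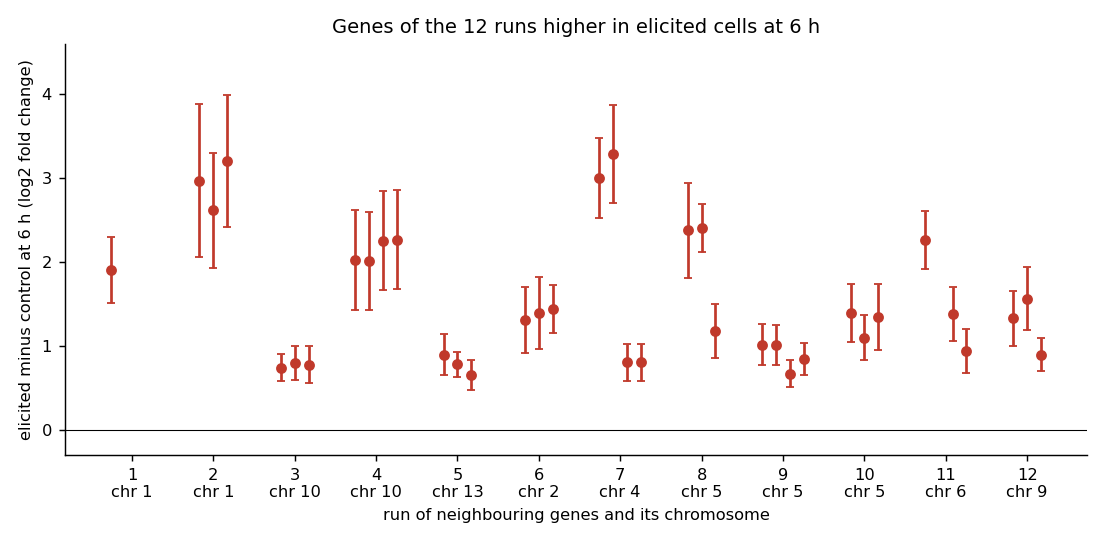
Log2 fold change of elicited over control cells at 6 h (vertical axis, bars are the SE) for the genes of the 12 runs, in order along each run (horizontal axis, with the chromosome). The 4 genes with 3 or fewer counts over both controls are left out. All plotted genes lie above 0, and in the run on chromosome 4 one pair that shares exon bases lies at up to 3.29 and the other at 0.81.

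Over the 14 chromosomes the share of tested genes called higher lay between 2.62% on chromosome 6 and 4.71% on chromosome 5, and the share called lower between 1.68% on chromosome 1 and 3.71% on chromosome 12. Exon bases in common with another gene occur in 65 of the 732 higher genes (8.88%), 26 of them with one on the opposite strand, and in 52 of the 522 lower genes (9.96%), beside 2019 of all 20107 tested genes. For these genes a change in 1 partner can appear in both.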

How the data were processed

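The authors deposited raw read counts per gene, without normalization, for 34 libraries in 1 table that also gives exon coordinates and summed exon length. The reads went through fastp, STAR and featureCounts, per the submitters' processing notes. Their versions, the genome build, the annotation, the strand setting and the handling of reads with several matches were not given in the sources at hand. RNA had an integrity number of at least 7 and libraries were made with a stranded mRNA kit, per the labels. Columns were matched to samples by their description. A pooled long-read sample is not analysed here.

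Tests used R 4.3.3 and edgeR 4.0.16. Genes were kept by filterByExpr (minimum count 10), libraries scaled by TMM, and a quasi-likelihood model with 12 group means fitted to all 34 libraries, so that the 6 h groups of 3 and 2 libraries borrow their spread from the rest. Each time gave a contrast of elicited minus control, and times were compared by interaction contrasts. P-values were adjusted by Benjamini-Hochberg over 20107 genes and called below 0.05. CPM use the TMM-scaled library size, and TPM the summed exon length. Levels over time are log2 CPM with a prior count of 2. Standard errors were taken from the log2 fold change and its F statistic (absolute value divided by the root of F). Folds against a group without reads use 3 counts over the summed TMM-scaled library sizes of that group. Unscaled library totals were 17191217 to 18897243. Intervals and floors cover counting error only.

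Named genes are the first 2 increases and first 2 decreases by log2 fold change at 6 h among called genes with at least 1 CPM in the lower group, no overlap of libraries and no exon base in common with another gene. Fewer were named than in the full rule since no name table was at hand, and the planned lists by gene name were not run. A run is 3 or more consecutive tested genes called in 1 direction. The comparison, lists and rules were chosen with earlier results of these data known. The fit was tested on simulated data. Alternatives were DESeq2 1.42.0, RLE or library-size scaling, no filter, only the 6 h libraries, a replicate block, leaving out libraries and, chosen after seeing the data, leaving out genes that share exon bases.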

Additional observations from a re-analysis of the deposited data

Results flagged for a closer look

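The difference between elicited and control cells was not the same at all times. It differed between 6 and 0.5 h for 170 genes, between 12 and 6 h for 1034 genes, and between 6 h and the mean of the other 5 times for 3832 genes (edgeR interaction contrasts, adjusted p below 0.05). Among the named genes, Mal_HE_154X_1_chr004g022320 had a 6 h difference 4.61 log2 units under the mean of the other times (contrast -4.61), a fitted value that includes times with no or 1 control read. Mal_HE_154X_1_chr008g015450 changed by -1.95 between 6 and 12 h, Mal_HE_154X_1_chr011g014330 by -2.21 between 0.5 and 6 h, and Mal_HE_154X_1_chr007g006310 by 1.98 between 6 and 12 h and by -1.74 at 6 h against the mean of the other times.

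Single libraries also stood out within their group. Mal_HE_154X_1_chr011g014330 stood at 23.7 CPM in elicited 12 h replicate 4, above the other 3, and at 7.70 CPM in elicited 24 h replicate 2, below the other 3, each by more than Dixon's critical value. Chance flags about 1 in 20 such groups, and 16 groups were checked; the 6 h groups, with 3 and 2 libraries, are too small for this check.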

How the results depend on the processing

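The 4 named genes kept their direction and call under each alternative setting and without any single elicited 6 h library. They also kept their direction without either 6 h control, where 1 control library was left and only the size is given here. When single 6 h libraries were left out, their log2 fold changes were 4.32 to 5.31, 4.12 to 5.13, -3.18 to -2.57 and -3.05 to -2.40, in the order in which the report names them. Fits without a single library of another time were not read for these genes. Counts moved more. When single libraries were left out, higher genes ranged from 224 to 815, lower from 152 to 545, 2-fold higher from 177 to 494 and 2-fold lower from 69 to 104. Runs ranged from 0 to 15. Genes whose 6 h difference differed from that at 0.5 h ranged from 32 to 352, from that at 12 h from 205 to 1304, and from the mean of the other times from 1868 to 4138. Genes higher at both 6 and 12 h (427) ranged from 170 to 531, lower at both (165) from 59 to 218, and shared with 0.5 h (116) from 20 to 298. Single-exon shares ranged from 12.9 to 21.9% of higher, 8.74 to 13.2% of lower and 15.7 to 16.2% of genes not called. With only the 6 h libraries there were 388 higher and 105 lower genes, 58 of these 2-fold, 6 runs, and single-exon shares of 29.4%, 18.1% and 14.3%. With DESeq2 the runs were 28, the 6 and 0.5 h differences 373 and the calls shared with 0.5 h 221. Without TMM, by library size only, 619 genes were higher and 685 lower, in place of 732 and 522, the median over all genes lay at -0.09, and 356 genes were lower at both 6 and 12 h. Without elicited 0.5 h replicate 1, 12 h replicate 4 and 48 h replicate 3 there were 1091 higher and 825 lower genes and 26 runs. In that fit 709 genes differed between 6 and 0.5 h, 658 higher and 293 lower genes were shared with 12 h, and 473 calls were shared with 0.5 h. The single-exon share of genes not called was 17.3% with no filter and 16.2% without genes that share exon bases. The cause of these shifts was not tested. The replicate block, on the numbers of the sample titles, gave 734 higher and 476 lower genes. The labels do not say that a number marks a shared origin, and the column names number the second control 3, so only the first numbers match in both. Deviations of same-numbered libraries correlated at -0.06 and -0.09, but those of 2 controls mirror each other, so whether the numbers pair the libraries cannot be settled. Under 1 CPM, the 20 increases and 14 decreases called were all of at least 2-fold; calls at other depths were not tested.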
